A study of Bos taurus with 12 samples.

Results

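Genes of the cytokine, chemokine and immune receptor families were examined in peripheral white blood cells (PWBCs) of beef heifers sampled before artificial insemination (AI). The set was chosen by symbol: interleukins and their receptors, CXC and CC chemokines and their receptors, TNF, interferon and Toll-like receptor families, integrins, Fc receptors, C-type lectins of the CLEC family and surface antigens with a CD number. In the part of the study's tables available here, 2911 genes had a symbol. Of these, 46 had a symbol of these families and at least 10 counts in at least 6 of the 12 libraries. In all, 27607 genes were counted. The symbol alone also brought in CD2AP, ITGB3BP, ITGB1BP2 and TNFAIP3, which are not themselves ligands, receptors or surface antigens. No family symbol was lost to the count rule. CCL4, CXCL5, IL1RL1 and LTA were left out by the rule, and 2 of these 4 passed the study's thresholds with edgeR and 3 with DESeq2, so the rule itself lowers the number of changed genes among the 46. The symbols came from tables of genes in the study's own lists and networks, and the network tables were available only in part. The 46 are thus not a full census of the families, and genes without a symbol here may be named in the full tables. ITGA1 and CLEC2B were the 2 members in the study's list of differentially expressed genes, and both were also in its list of differentially connected genes.

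Cytokines and chemokines are secreted signals that leukocytes use to activate and position each other, and they are read by receptors on the target cell, often with several ligands to a receptor. Integrins are paired alpha and beta chains through which leukocytes and platelets adhere, Toll-like receptors sense microbial molecules, and Fc receptors bind antibody. Many CD antigens are restricted to 1 blood lineage, so their level in mixed blood RNA follows both the share of that lineage and its RNA content; in bulk samples fewer cells of a type and less RNA per cell cannot be told apart.

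All 12 animals were Simmental-Angus cross heifers whose estrus was synchronized with GnRH, a progesterone device (CIDR) and prostaglandin in the 7-Day CO-Synch + CIDR protocol, and blood was drawn 2 days before AI. The fertile group (labelled Pregnant) was 6 heifers that conceived to the first AI, and the subfertile group (labelled Open) was 6 heifers that were not pregnant after AI and about 60 days with bulls. The groups were formed afterwards from the outcome and chosen to be alike in age and weight at breeding; reproductive tract score was 4 in all but fertile heifer 2 and subfertile heifer 1, which scored 5. There was 1 library per heifer, so each value rests on 1 blood draw from a mixture of cell types. Library totals ranged from 14010736 to 21278761 counts, and 15625 to 16323 genes had at least 1 count. No 2 of the 66 pairs of libraries were identical. Fertile heifer 6 (LM1330) stood apart in this gene set. It had the highest level of 13 of the 46 genes (28.3%) and the lowest of 8 (17.4%), against 13.6% and 12.3% of all genes tested. Over all genes tested subfertile heifer 1 held more of both ends (15.0% and 14.7%). The 46 genes held 0.728% of the counts of fertile heifer 6 against 0.369% to 0.512% in the other 11 libraries. The single gene ITGB3 had 31943 counts in fertile heifer 6 and at most 11455 in any other library. Leaving out fertile heifer 6 moved the log2FC of 26 of the 46 genes by over 1.5 times or turned its sign, and those values are given with each gene. A log2FC near 0 passes this limit with a small move, and no such share over all genes is given here.

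The first comparison asked whether the level of these genes before insemination differed between heifers that later conceived and those that did not. Levels are CPM, counts scaled to a common library size with TMM factors, and fold changes are log2, subfertile against fertile, from edgeR's quasi-likelihood test fitted on 13012 genes, all 46 family genes among them. The study's thresholds were an unadjusted P up to 0.05 and a log2FC of at least 0.5 in either direction. By these, 2 of the 46 genes (4.35%) were called, against 1.4% of all genes tested. The symbols came in part from the study's list of differentially expressed genes, so the other 2863 tested genes with a symbol are the closer background, and 5.17% of them were called. Among the 46, the share called was thus no higher than among genes named in the same way. This did not hold with the 4 genes left out by the rule added back. With them, edgeR called 4 of 50, a higher share than 5.17%. All 4 left-out genes, among them the 2 that edgeR called (CXCL5 and IL1RL1), are also in that background, so they count on both sides. CLEC2B was called higher in subfertile heifers, where 0.661% of all genes were called, and ITGA1 lower, where 0.738% were called. At P of 0.05 or less without the limit on size, ITGB1BP2 joined them and made 3 of 46 (6.52%), against 2.62% of all genes and 6.36% of the other genes with a symbol. DESeq2, the study's own tool, called the same 2 genes at both thresholds, against 1.77% of all genes and 6.81% of the other genes with a symbol. After Benjamini-Hochberg adjustment over all genes, 0 of the 46 and 0 of all 13012 genes passed 0.05 with edgeR or DESeq2. At an unadjusted P of 0.05 or less there were 3 of the 46 with each of these tools, and the smallest adjusted P over all genes was 0.9998 with edgeR and 0.266 with DESeq2. Of the 46 log2FC, 21 were above 0 and 25 below, with a median of -0.06 against 0.01 over all genes. The absolute log2FC was under 0.2 in 28 of the 46 (60.9%), against 72.2% of all genes and 70.8% of the others with a symbol, and the median absolute log2FC was 0.16 against 0.11 in both. Each library was then left out in turn. In at least 1 of the 12 fits the log2FC of 44 of the 46 genes moved by over 1.5 times or changed sign, the exceptions being CLEC2B and ITGB1BP2. A log2FC near 0 passes this limit with a small move, as IFNAR2 did from 0.06 to 0.04 (SE 0.08). No such share over all genes is given here.

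**Figure D1:**
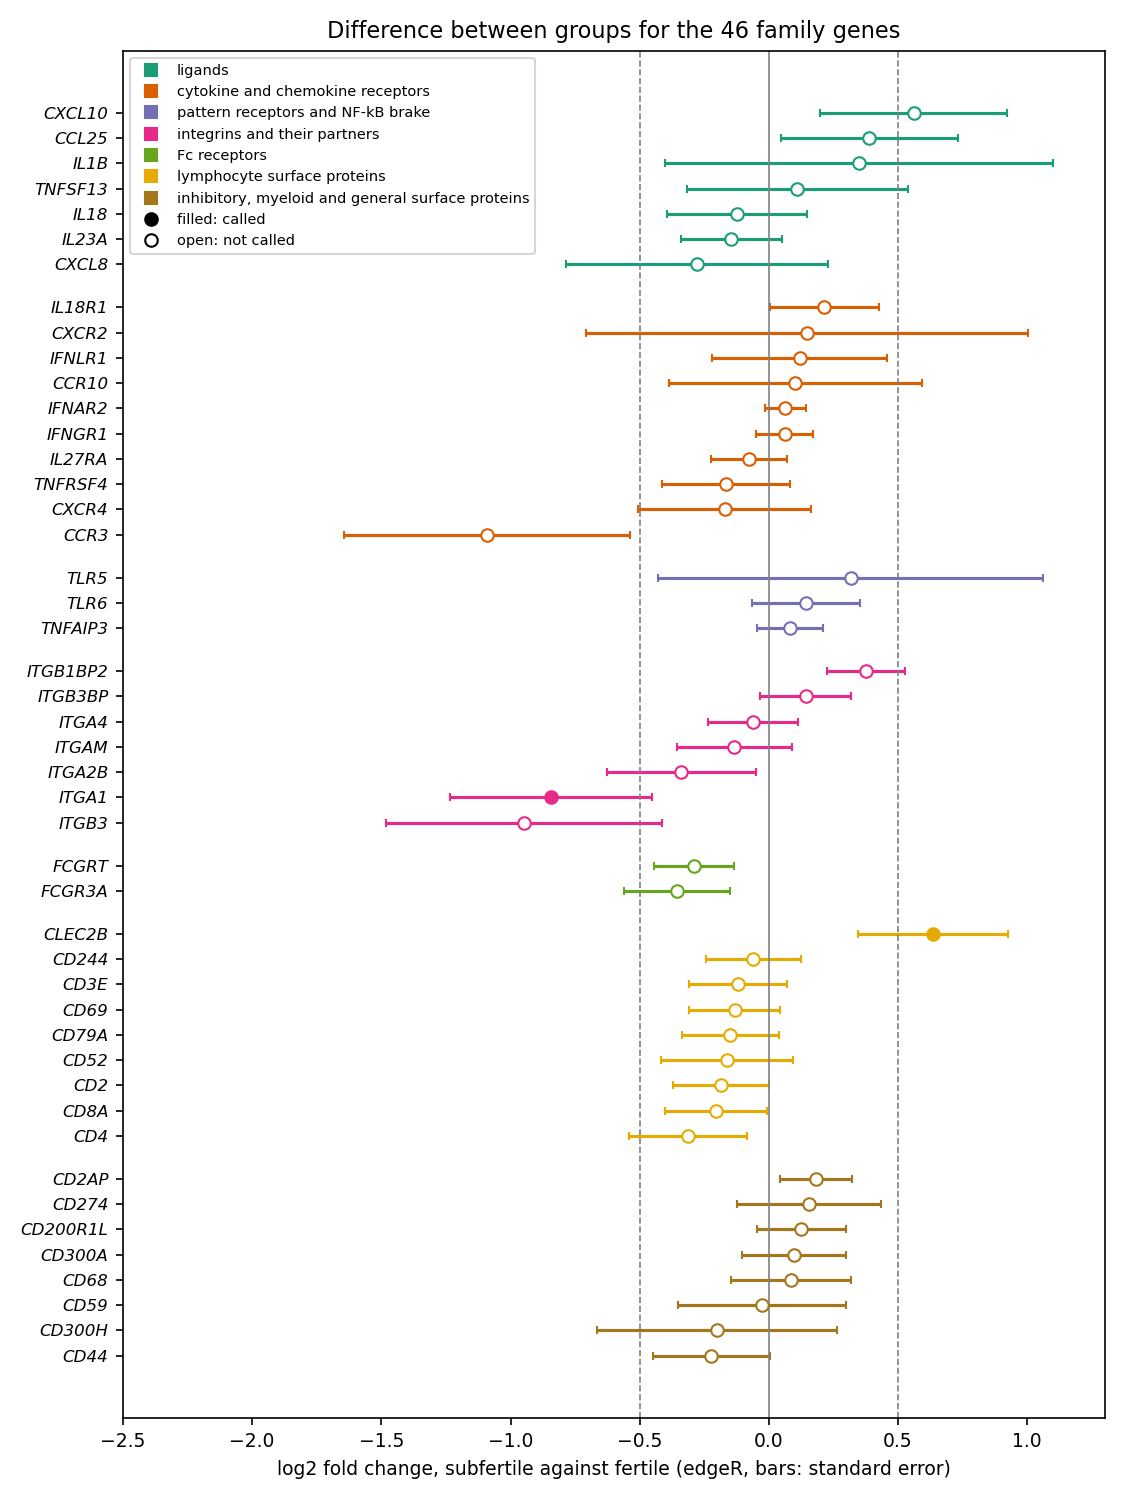
The log2 fold change of subfertile against fertile heifers from edgeR (x axis, bars: standard error; dashed lines: 0.5 in either direction) for the 46 family genes, grouped by role, with 6 heifers per group. Only CLEC2B (0.64) and ITGA1 (-0.84) are filled as called, while CCR3 (-1.09) and ITGB3 (-0.95) lie further out with standard errors of 0.55 and 0.53.

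Among the 7 ligands, 4 were above 0, 3 below and none was called with edgeR. CXCL10, a chemokine induced by interferon that attracts activated T cells, ranged from 4.42 to 14.7 CPM (median 10.1) in fertile heifers and from 7.00 to 31.3 CPM (median 12.3) in subfertile heifers. The groups overlapped, and 31.3 CPM was subfertile heifer 3 (LM1259), more than double the next subfertile value of 14.3 CPM. The log2FC was 0.56 (SE 0.36, edgeR P = 0.145; exact permutation test, two-sided, P = 0.251) and 0.17 without that heifer.

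IL1B, an early inflammatory cytokine, ranged from 0.363 to 28.4 CPM (median 5.01) in fertile and from 3.07 to 21.7 CPM (median 8.65) in subfertile heifers. Both ends of the range were fertile heifers, heifer 6 the lowest and heifer 3 (LM1262) the highest. The log2FC of 0.35 had an SE of 0.75 (edgeR P = 0.65; exact P = 0.359) and moved to 1.26 without fertile heifer 3, to 0.020 without subfertile heifer 5 and to 0.089 without fertile heifer 6. CXCL8, the neutrophil attractant also known as IL-8, ranged from 8.24 to 75.5 CPM (median 25.0) in fertile and from 14.2 to 44.6 CPM (median 28.2) in subfertile heifers. Its 2 highest values, in fertile heifers 6 and 2, and its 3 lowest, in fertile heifers 3, 1 and 5, all came from the fertile group. Its log2FC was -0.28 (SE 0.51, edgeR P = 0.591; exact P = 0.84) and changed sign to 0.10 without fertile heifer 6.

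IL18, which drives interferon gamma release, ranged from 3.90 to 12 CPM (median 7.04) in fertile and from 4.98 to 8.36 CPM (median 5.90) in subfertile heifers, with a log2FC of -0.12 (SE 0.27, edgeR P = 0.654; exact P = 0.87). CCL25, a chemokine of gut-homing lymphocytes, ranged from 1.51 to 3.02 CPM in fertile and from 1.43 to 4.92 CPM in subfertile heifers, with a log2FC of 0.39 (SE 0.34) that was 0.16 without subfertile heifer 5 and 0.21 without subfertile heifer 4. IL23A, a subunit of interleukin 23, and TNFSF13, the B cell survival factor APRIL, had log2FC of -0.14 (SE 0.20) and 0.11 (SE 0.43), which were -0.07 and -0.08 without fertile heifer 6. TNFSF13 ranged from 2.66 to 16.4 CPM over the 12 heifers, while IL23A stayed between 4.27 and 8.76 CPM.

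Of the 10 cytokine and chemokine receptors, 6 were above 0, 4 below and none was called with edgeR. CCR3, the eotaxin receptor of eosinophils, had the largest absolute log2FC of the 46 genes, -1.09 (SE 0.55, edgeR P = 0.0692; exact P = 0.387). It ranged from 10.9 to 207 CPM (median 39.7) in fertile and from 11.1 to 41.1 CPM (median 32.6) in subfertile heifers. Fertile heifer 6 held the 207 CPM, the other 11 heifers lay between 10.9 and 51.4 CPM, and without heifer 6 the log2FC was -0.20. Without fertile heifer 1 (LM1244), which had the lowest level, it was -1.31, and without fertile heifer 4 it was -1.25, and in both of these fits CCR3 passed the study's thresholds. Whether CCR3 was called thus turned on which fertile heifer was in the comparison.

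CXCR2, the receptor through which neutrophils respond to CXCL8, had no count in fertile heifer 6, which allows a level of up to 0.181 CPM (3 counts; counting error only). In the other fertile heifers it reached 7.81 CPM, with a group median of 1.51 CPM, and it ranged from 0.438 to 7.61 CPM (median 2.11) in subfertile heifers. Each group thus held heifers at both ends, and the log2FC of 0.15 had an SE of 0.85 (edgeR P = 0.864; exact P = 0.494) and was -0.12 without fertile heifer 6 and 0.91 without fertile heifer 3. CXCR4, which retains leukocytes in the bone marrow and lymphoid tissue, ranged from 35.6 to 113 CPM in fertile and from 24.9 to 95.4 CPM in subfertile heifers (log2FC -0.17, SE 0.33). CCR10, a receptor of skin- and mucosa-homing lymphocytes, ranged from 0.930 to 6.19 CPM, both ends in subfertile heifers (log2FC 0.10, SE 0.49, and 0.25 without fertile heifer 6).

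The chains for type I interferon and interferon gamma had the narrowest ranges of the set on the log2 scale. IFNAR2, a chain of the type I interferon receptor, lay between 84.6 and 95.9 CPM (median 91.6) in fertile and between 84.4 and 104 CPM (median 96.3) in subfertile heifers, a log2FC of 0.06 (SE 0.08, edgeR P = 0.431; exact P = 0.368). IFNGR1, the ligand-binding chain of the interferon gamma receptor, lay between 90.0 and 130.5 CPM (median 111) in fertile and between 100.3 and 134 CPM (median 119) in subfertile heifers, also a log2FC of 0.06 (SE 0.11, edgeR P = 0.583; exact P = 0.558), which was 0.0036 without fertile heifer 6. IFNLR1, the type III interferon receptor chain, ranged more widely, from 1.42 to 8.43 CPM over the 12 heifers (log2FC 0.12, SE 0.34, and 0.04 without fertile heifer 6).

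IL18R1, the binding chain for IL18, ranged from 7.81 to 15.2 CPM (median 12.4) in fertile and from 9.97 to 20.6 CPM (median 11.7) in subfertile heifers, with a log2FC of 0.21 (SE 0.21, edgeR P = 0.329; exact P = 0.39) that was 0.06 without subfertile heifer 4. IL27RA, the receptor of interleukin 27 on T cells, lay between 179 and 313 CPM (log2FC -0.08, SE 0.15, and -0.02 without fertile heifer 6). TNFRSF4, the T cell costimulatory receptor OX40, lay between 17.7 and 54.4 CPM (log2FC -0.17, SE 0.25, and -0.08 without fertile heifer 6).

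The 3 genes of microbial sensing and its control were above 0 and none was called with edgeR. TLR5, the flagellin receptor, had the fewest counts of the set. It had no count in fertile heifer 5 (up to 0.145 CPM allowed by 3 counts), ranged up to 1.33 CPM (median 0.807) in the fertile group and from 0.215 to 2.03 CPM (median 0.641) in the subfertile group. With 7 libraries at 10 counts or more it was the gene nearest to the count rule, followed by CXCR2 with 9. Its log2FC of 0.32 had an SE of 0.74 (edgeR P = 0.677; exact P = 0.526) and changed sign to -0.18 without subfertile heifer 5, and it was 0.07 without fertile heifer 6. TLR6, which pairs with TLR2 to sense bacterial lipoproteins, ranged from 37.9 CPM in fertile heifer 6 to 108 CPM in fertile heifer 1, and its log2FC of 0.14 (SE 0.21) was 0.01 without the former and 0.31 without the latter. TNFAIP3, the A20 enzyme that restrains NF-kB signalling, lay between 27.2 and 36.1 CPM (median 31.4) in fertile and between 24.9 and 39.3 CPM (median 33.4) in subfertile heifers (log2FC 0.08, SE 0.13, edgeR P = 0.53; exact P = 0.571).

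Of the 7 integrin genes and their partners, 2 were above 0 and 5 below, and ITGA1 was called with edgeR. ITGA1, the alpha chain of a collagen receptor carried by activated and tissue-resident lymphocytes, ranged from 1.45 to 9.06 CPM (median 4.56) in fertile and from 1.29 to 3.96 CPM (median 2.62) in subfertile heifers. All 6 subfertile values were below the fertile median, yet the groups overlapped, because fertile heifers 3 and 4 stood at 1.45 and 2.42 CPM. The log2FC was -0.84 (SE 0.39, edgeR P = 0.0489), and the exact permutation test of mean log2 CPM gave P = 0.152. The gene stayed lower whichever library was left out, with log2FC from -1.03 to -0.56, but it passed both thresholds in 3 of those 12 fits; the value nearest to 0 came without fertile heifer 6, which had the highest level. It also lost its call by voom (log2FC -0.64), with library total alone (-0.82) and with the reproductive tract score in the edgeR model (-0.87).

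ITGB1BP2, or melusin, a chaperone-like protein that binds the cytoplasmic tail of the integrin beta 1 chain and is best known from muscle, had the smallest P of the 46 genes. It ranged from 5.63 to 7.37 CPM (median 6.95) in fertile and from 7.58 to 11.3 CPM (median 8.33) in subfertile heifers. The 5.63 CPM was fertile heifer 2, and the other fertile heifers were at 6.78 CPM or more. The groups did not overlap, which in either direction was so for 1 of the 46 genes (2.17%) and for 0.123% of all genes tested and 0.279% of the others with a symbol. Every subfertile heifer was above every fertile heifer in 0.0692% of all genes tested. The mean was 6.81 ± 0.613 CPM in fertile and 8.85 ± 1.48 CPM in subfertile heifers (SD, n = 6 each), the log2FC was 0.38 (SE 0.15, edgeR P = 0.0258), and the exact permutation test gave P = 0.00216, the smallest that 12 heifers allow. Any gene whose groups do not overlap gets this exact P, so it is not a second result beside the lack of overlap. It was not adjusted over the 46 genes. Labels set at random would separate the groups with a probability of 0.00216 per gene, a larger share than the 0.123% found over all genes. The difference was below the study's limit of 0.5, and the adjusted edgeR P was 0.9998. It kept its direction in each fit with 1 library left out, with log2FC from 0.30 to 0.42, and an edgeR P of 0.05 or less in 9 of 12; the smallest value came without subfertile heifer 2 (LM1251), which had the 11.3 CPM.

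ITGB3, the beta chain of the platelet fibrinogen receptor and of the vitronectin receptor, ranged from 106 to 1930.1 CPM (median 443) in fertile and from 118 to 519 CPM (median 324) in subfertile heifers. The 1930.1 CPM was fertile heifer 6, and the next value was 552 CPM in fertile heifer 5. The log2FC was -0.95 (SE 0.53, edgeR P = 0.0973; exact P = 0.372), -0.21 without fertile heifer 6, and -1.17 without fertile heifer 1, where it passed the study's thresholds. ITGA2B, the alpha chain that pairs with ITGB3 on platelets, ranged from 63.5 to 247 CPM in fertile and from 60.5 to 123 CPM in subfertile heifers, with a median of 96.5 CPM in both. Its log2FC of -0.34 (SE 0.29, edgeR P = 0.259; exact P = 0.496) became 0.01 without fertile heifer 6, again the highest.

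The platelet genes that could be named moved with the same heifer. TUBB1, the platelet form of beta tubulin, was at 7705 CPM in fertile heifer 6 and reached 2517 CPM at most in the subfertile group, and GP9, a chain of the von Willebrand factor receptor, was at 31.2 CPM against at most 6.71 CPM. With ITGA2B and ITGB3 they made 4 of the 9 genes of a platelet list, and their summed level ranged from 536 to 9913 CPM in fertile and from 528 to 3165 CPM in subfertile heifers; none was at 0. The part of platelet RNA in the differences of CCR3, ITGB3 and ITGA2B was not tested.

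ITGA4, the alpha chain of the lymphocyte homing receptor VLA-4, lay between 134 and 296 CPM (log2FC -0.06, SE 0.17). ITGAM, the myeloid complement receptor chain CD11b, ranged from 81.1 to 163 CPM (median 112) in fertile and from 64.2 to 159 CPM (median 103) in subfertile heifers (log2FC -0.13, SE 0.22, edgeR P = 0.556; exact P = 0.515). ITGB3BP, a nuclear and centromere protein first found by its binding to the beta 3 tail, lay between 8.94 and 17.6 CPM (log2FC 0.14, SE 0.17).

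Both Fc receptors were below 0, and neither was called with edgeR. FCGRT, the heavy chain of the neonatal Fc receptor that recycles IgG, ranged from 54.2 to 91.1 CPM (median 67.4) in fertile and from 36.6 to 72.0 CPM (median 58.7) in subfertile heifers. In 5 of 6 subfertile heifers it was below the fertile median, and the log2FC was -0.29 (SE 0.15, edgeR P = 0.0821; exact P = 0.11). FCGR3A, the activating receptor CD16 of NK cells and monocytes, ranged from 32.1 to 89.6 CPM (median 51.2) in fertile and from 33.2 to 53.3 CPM (median 43.2) in subfertile heifers, also with 5 of 6 subfertile heifers below the fertile median. Its log2FC was -0.36 (SE 0.21, edgeR P = 0.105; exact P = 0.21) and -0.17 without fertile heifer 2 (LM1247), which had the 89.6 CPM. PRF1, the perforin gene of cytotoxic granules and the 1 NK cell marker with a name, was not a member and had a log2FC of -0.40 (SE 0.19), with medians of 99.0 CPM in fertile and 73.4 CPM in subfertile heifers. The part of NK and cytotoxic T cells in the differences of FCGR3A and of the lymphocyte genes that follow was not tested.

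**Figure D2:**
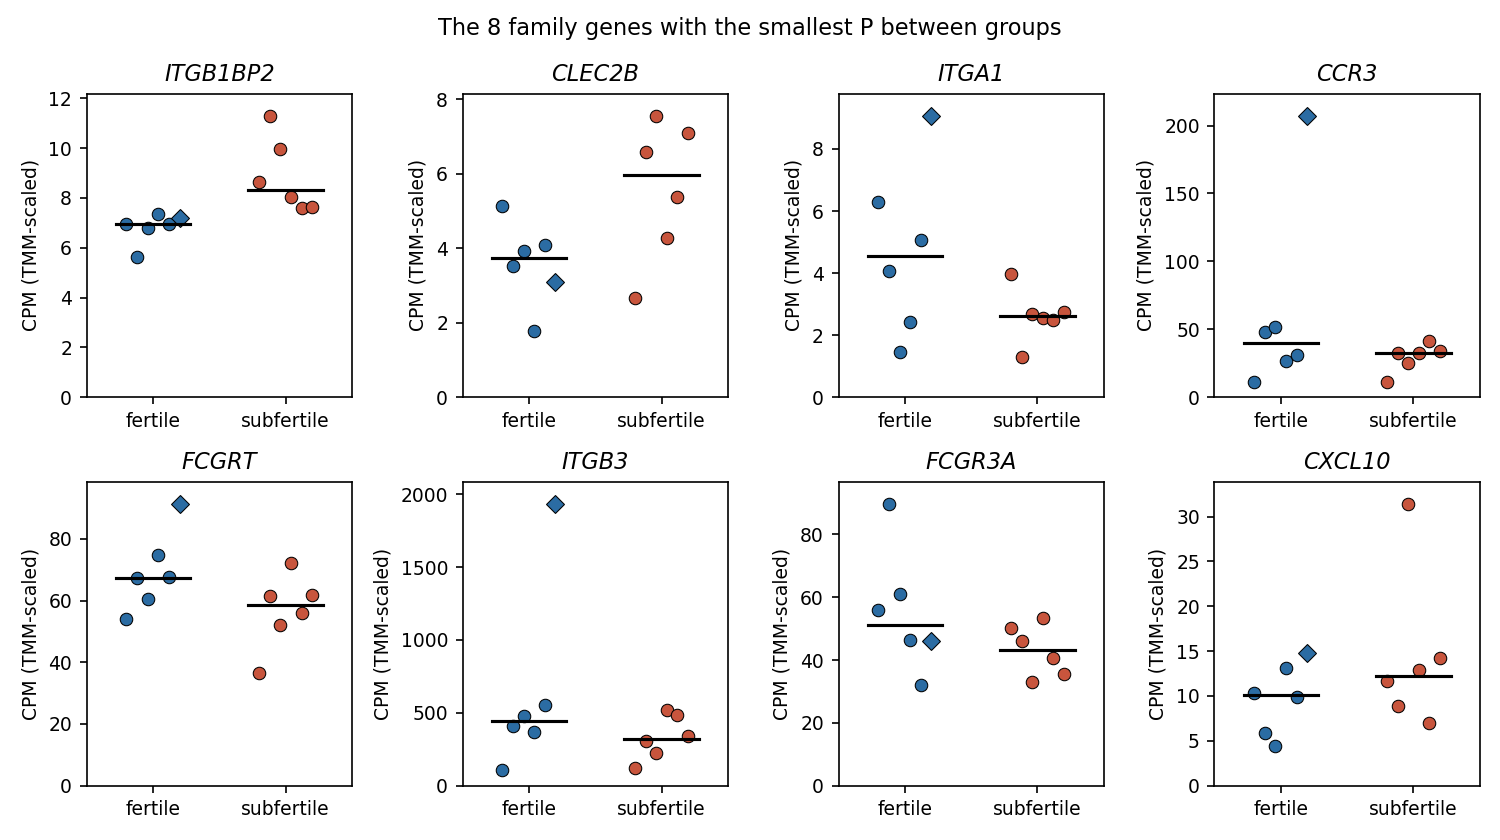
CPM in each heifer (points; y axes start at 0) for the 8 family genes with the smallest edgeR P, with the median of each group of 6 as a bar and fertile heifer 6 as a diamond. The groups are apart only in ITGB1BP2, where fertile heifers end at 7.37 CPM and subfertile heifers begin at 7.58 CPM, and the diamond is far above all other points in CCR3 (207 CPM) and ITGB3 (1930.1 CPM).

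Of the 9 lymphocyte surface genes, 8 were below 0 (88.9%, against 48.2% of all genes tested and 50.9% of the others with a symbol) and 1 was above, and these counts were the same without fertile heifer 6, while the median log2FC of the 9 went from -0.15 to -0.07. None of the 8 passed a threshold with edgeR; their log2FC ran from -0.31 to -0.06, with no edgeR P under 0.194. These 8 genes partly measure the same cells, so they are not 8 separate observations. CD4, the coreceptor of helper T cells, had the largest of these differences. It ranged from 137 to 333 CPM (median 201) in fertile and from 123 to 220.0 CPM (median 173) in subfertile heifers, with a log2FC of -0.31 (SE 0.23, edgeR P = 0.194; exact P = 0.344) that shrank to -0.14 without fertile heifer 4 (LM1286), the highest.

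CD8A, the coreceptor of cytotoxic T cells, ranged from 36.4 to 90.5 CPM (median 62.3) in fertile and from 43.5 to 65.0 CPM (median 60.5) in subfertile heifers (log2FC -0.20, SE 0.20, edgeR P = 0.314; exact P = 0.519). CD3E, a chain of the T cell receptor complex, ranged from 396 to 739.8 CPM (median 509) in fertile and from 322 to 633 CPM (median 526) in subfertile heifers (log2FC -0.12, SE 0.19, edgeR P = 0.541; exact P = 0.509). CD2, an adhesion receptor of T and NK cells, ranged from 79.2 to 163 CPM (median 113) in fertile and from 77.3 to 133 CPM (median 100.2) in subfertile heifers (log2FC -0.19, SE 0.19, edgeR P = 0.338; exact P = 0.429). The T cell genes thus overlapped nearly throughout, and CD3E had the higher median in the subfertile group. Without fertile heifer 6 the log2FC was -0.09 for CD8A, -0.01 for CD3E and -0.07 for CD2.

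CD79A, a signalling chain of the B cell receptor, ranged from 335 to 719 CPM (median 548) in fertile and from 369 to 698 CPM (median 464) in subfertile heifers (log2FC -0.15, SE 0.19, edgeR P = 0.44; exact P = 0.498). CD52, a small glycoprotein of mature lymphocytes, was at 388 to 1257 CPM over the 12 heifers (log2FC -0.16, SE 0.26, and -0.01 without fertile heifer 6). CD69, an early activation antigen, lay between 32.7 and 67.6 CPM (log2FC -0.13, SE 0.18, -0.01 without fertile heifer 5 and -0.08 without fertile heifer 6), and CD244, the NK cell receptor 2B4, between 22.7 and 46.2 CPM, the highest in subfertile heifer 4 with the next subfertile value at 29.8 CPM (log2FC -0.06, SE 0.18).

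CLEC2B was the only lymphocyte surface gene above 0. It encodes a C-type lectin that in human blood is induced on activation and is bound by an NK cell receptor. It ranged from 1.78 to 5.12 CPM (median 3.73) in fertile and from 2.66 to 7.55 CPM (median 5.98) in subfertile heifers, with 5 of 6 subfertile heifers above the fertile median and subfertile heifer 1 (LM1246) below it. The log2FC was 0.64 (SE 0.29, edgeR P = 0.0463), and the exact permutation test gave P = 0.0779. The gene was higher in every fit with 1 library left out, from 0.50 without fertile heifer 4 to 0.78 without subfertile heifer 1, and passed both thresholds in 3 of those 12. It lost its call by voom (log2FC 0.61) and with the reproductive tract score in the edgeR model (0.59). The gene had 36 to 138 counts per library.

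Of the 8 inhibitory, myeloid and general surface genes, 5 were above 0 and 3 below, and none was called with edgeR; without fertile heifer 6 the split was 3 and 5. CD300H, of the CD300 family of myeloid receptors, had the widest range, from 1.09 CPM in fertile heifer 6 to 8.49 CPM in fertile heifer 2, with a median of 3.08 CPM in fertile heifers. In subfertile heifers it ranged from 1.37 to 5.55 CPM (median 3.61), and the log2FC was -0.20 (SE 0.46, edgeR P = 0.672; exact P = 1.0), -0.40 without fertile heifer 6 and 0.19 without fertile heifer 2. CD300A, an inhibitory receptor of the same family, lay between 47.8 and 115 CPM (log2FC 0.10, SE 0.20, and -0.01 without fertile heifer 6). CD68, a lysosomal marker of monocytes and macrophages, lay between 8.76 and 23.5 CPM (log2FC 0.08, SE 0.23, and -0.02 without fertile heifer 6).

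CD274, the checkpoint ligand PD-L1, ranged from 3.91 to 13.2 CPM (log2FC 0.16, SE 0.28), and CD200R1L, a relative of the inhibitory CD200 receptor, from 45.5 to 89.3 CPM (log2FC 0.12, SE 0.17). CD44, the hyaluronan receptor, lay between 118 and 366 CPM (log2FC -0.22, SE 0.22, and -0.0014 without fertile heifer 6), and CD59, which blocks the complement attack complex, between 1.91 and 8.53 CPM (log2FC -0.03, SE 0.32, and -0.09 without fertile heifer 6). CD2AP, counted here by its symbol, is an adaptor of the CD2 tail and of the cytoskeleton and not a surface protein. It lay between 61.3 and 107 CPM (log2FC 0.18, SE 0.14). The smallest edgeR P of these 8 genes was 0.207, for CD2AP.

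The second question was how much the family genes varied from heifer to heifer. edgeR estimates a dispersion for each gene, the squared variation between heifers of 1 group beyond counting error, and a trend of dispersion at each level of expression. The dispersion was above the trend in 30 of the 46 genes (65.2%), against 26.6% of all genes tested and 28.9% of the other 2863 tested genes with a symbol. The median ratio to the trend was 1.28 for the family genes and 0.680 for all genes. Without fertile heifer 6 the counts were 32 of 46 (69.6%) and 28.8% of all genes. A larger share of the family genes than of all genes was thus above the trend, with or without that heifer. The difference was not tested, and some family genes were well below the trend.

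The ratio was over 5 in 5 genes, CCR3 (8.82), ITGB3 (8.43), IL1B (7.21), CXCL8 (6.64) and CXCR2 (5.04). Without fertile heifer 6 it was 3.39 for CCR3 and 3.56 for CXCR2, while ITGB3 (5.25), IL1B (5.66) and CXCL8 (5.63) stayed over 5. At the other end were ITGB1BP2 (0.34) and IFNAR2 (0.369), the gene whose groups did not overlap and the steadiest receptor chain. Of the lymphocyte surface genes, 8 of 9 were above the trend, with CLEC2B (0.799) the exception. Neutrophil and platelet markers moved with some of these genes, as given with the platelet list and the correlations, and their part in the spread was not tested.

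**Figure D3:**
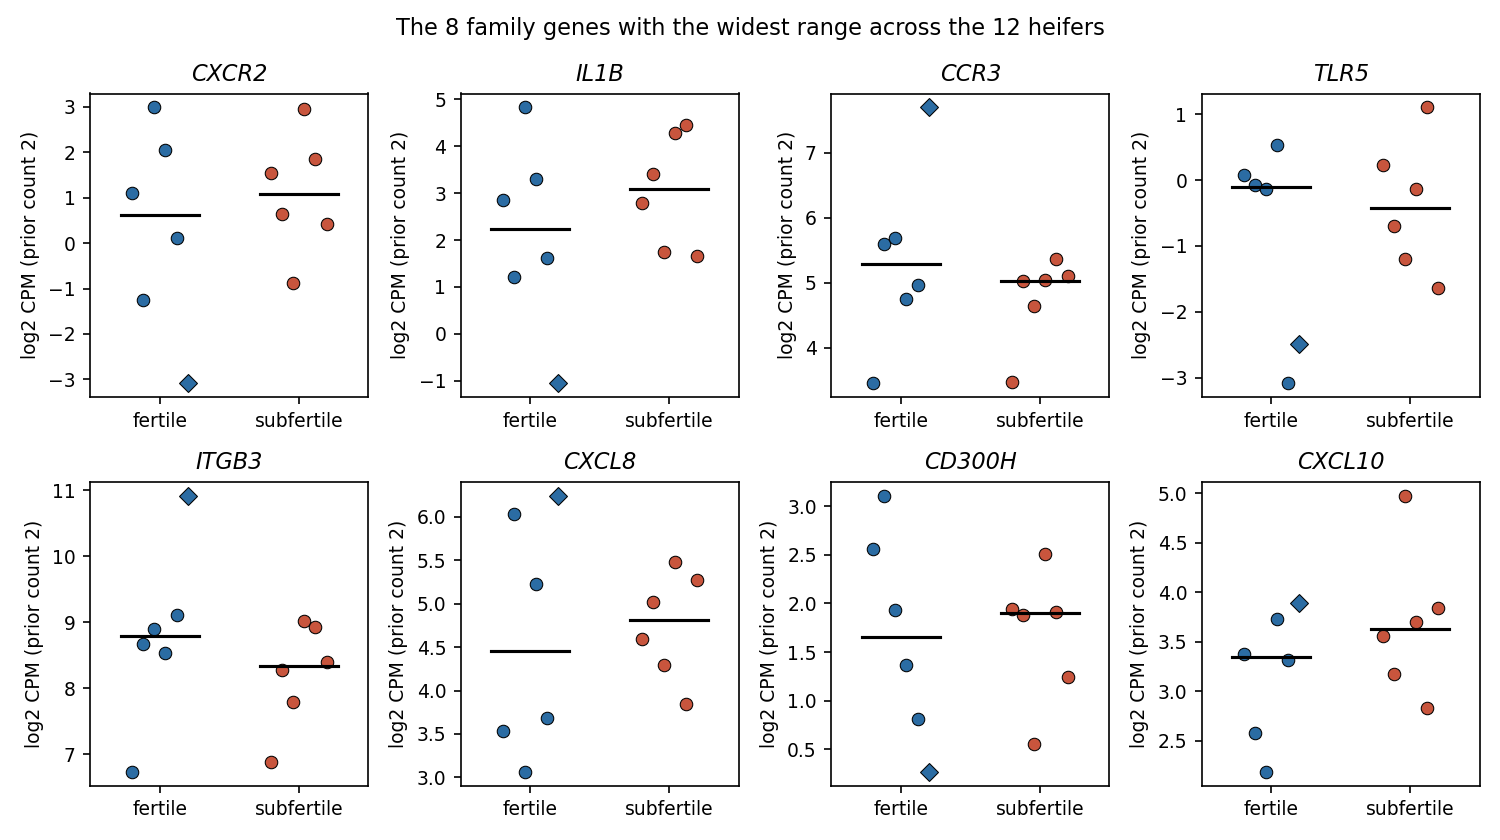
Log2 CPM (prior count 2) of the 8 family genes with the widest range over the 12 heifers, 1 point per heifer, with group medians as bars and fertile heifer 6 as a diamond. In CXCR2 and IL1B the diamond is the lowest point and in CCR3, ITGB3 and CXCL8 the highest, and in each of the 8 genes the groups overlap.

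The third comparison asked which family genes varied together over the 12 heifers. For 12 pairs of family genes, correlations were tested by permutation and adjusted over the pairs. They were subunits of a complex, markers of the same or of different lineages, ligands with receptors, and 3 further pairs of inflammatory or interferon genes (CXCL8 with IL1B, IL1B with TNFAIP3, IFNAR2 with IFNGR1). Only 2 passed. ITGA2B and ITGB3, the chains of the platelet fibrinogen receptor, had Pearson r = 0.92 (permutation P = 0.00014, adjusted 0.00168) and Spearman rho = 0.75 (permutation P = 0.00716, adjusted 0.043). Without the 2 heifers farthest from the median of ITGA2B r was 0.77, and it was 0.93 within the fertile and 0.87 within the subfertile group. CD3E and CD2 had r = 0.81 (permutation P = 0.0015, adjusted 0.009) and rho = 0.81 (permutation P = 0.00242, adjusted 0.029). Without the 2 farthest heifers r was 0.71, and it was 0.95 within the fertile and 0.72 within the subfertile group. Without fertile heifer 6 r was 0.74 and no longer passed (adjusted permutation P = 0.0578).

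The other 10 pairs did not pass after adjustment, the smallest adjusted permutation P being 0.215. Within the T cell lineage CD3E had r = 0.54 with CD4 (permutation P = 0.0716; rho = 0.57, permutation P = 0.0602) and r = 0.33 with CD8A (permutation P = 0.287; rho = 0.39, permutation P = 0.21). With the B cell gene CD79A it had r = 0.43 (permutation P = 0.167; rho = 0.31, permutation P = 0.319). Around the neutrophil receptor, CXCR2 had r = -0.51 with its ligand CXCL8 (permutation P = 0.0919; rho = -0.41, permutation P = 0.184), and without fertile heifers 2 and 6 r was -0.01. Within the fertile group it was -0.75 and within the subfertile group 0.25. CXCL8 and IL1B had r = -0.55 (permutation P = 0.0622; rho = -0.49, permutation P = 0.11), and r was -0.11 without fertile heifers 3 and 6, with -0.74 within the fertile and -0.09 within the subfertile group. The negative values thus rested on those heifers.

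For CXCR2 with ITGAM r was -0.26 (permutation P = 0.415; rho = -0.35, permutation P = 0.266) and with CD3E -0.12 (permutation P = 0.719; rho = 0.01, permutation P = 0.975), the latter with -0.62 within the fertile and 0.56 within the subfertile group. IFNAR2 and IFNGR1, which vary little, had r = -0.02 (permutation P = 0.952; rho = -0.17, permutation P = 0.604). IL18 and its receptor chain IL18R1 had r = 0.30 (permutation P = 0.341; rho = 0.31, permutation P = 0.331), with 0.04 within the fertile and 0.85 within the subfertile group. IL1B and TNFAIP3 had r = 0.34 (permutation P = 0.277; rho = 0.23, permutation P = 0.475), with -0.08 within the fertile and 0.80 within the subfertile group. Within-group values of the other pairs that did not pass differed by less than 0.5. The difference between groups was not tested for any pair.

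Among all 1035 pairs of the 46 genes, 44 (4.25%) had an absolute r of 0.8 or more, 32 positive and 12 negative, against 1.92% of all pairs of tested genes and 4.16% of pairs of the other genes with a symbol. Without fertile heifer 6 there were 43 (4.15%) against 2.54% and 5.05%. The family genes were thus linked about as often as other genes with a symbol, many of which were named in the study's networks. These correlations over 12 heifers are a description, without a test, since all pairs share the same libraries and the pairs named next were picked for their values. The closest pair was the T cell genes CD3E and IL27RA, with r = 0.97 and rho = 0.96, and r = 0.96 without fertile heifer 6. CD3E and ITGB3 had the most partners at this limit, 9 and 8 of the other 45 genes, of which 5 and 3 stayed at 0.8 or more without fertile heifer 6. Without that heifer the order changed, and CD52 and ITGA2B had the most partners, 8 each.

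CD44 and CD52 were among the partners of both T cell and platelet genes. CD44 had r = 0.95 with ITGA2B and 0.88 with CD3E, and CD52 had r = 0.89 with ITGB3 and 0.85 with CD2. Both also moved with platelet markers, CD44 with TUBB1 (r = 0.88, and 0.78 without fertile heifer 6) and GP9 (0.82 and 0.73), and CD52 with TUBB1 (0.83 and 0.79) and GP9 (0.86 and 0.82). The part of platelet RNA in these correlations was not tested. CD79A was closest to TNFRSF4 (r = 0.90), and the lymphocyte activation gene CD69 to CXCR4 (r = 0.90). CCR3 followed ITGB3 (r = 0.95; rho = 0.72) and, without fertile heifer 6, still had r = 0.90 with it. It also had r = 0.93 with TUBB1, the tubulin gene of platelets, and 0.87 without that heifer. CCR3 was the only eosinophil marker with a name in the part of the tables available here, so its link to eosinophils could not be checked.

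A further set of genes was linked to neutrophil markers. IL1B followed CXCR2 with r = 0.94 and rho = 0.90, and r = 0.90 without fertile heifer 6, where CXCR2 had no count and IL1B was at 0.363 CPM. TNFSF13 followed TLR5 (r = 0.89) and the neutrophil and monocyte gene S100A9 (r = 0.96, and 0.96 without fertile heifer 6). With S100A9, IL1B had r = 0.82, CXCR2 0.76 and TLR5 0.81, and without fertile heifer 6 these were 0.68, 0.56 and 0.75. S100A9 itself ranged from 21.7 CPM in fertile heifer 6 to 211 CPM in subfertile heifer 5, so that heifer 6, highest in platelet genes, was lowest in the neutrophil ones.

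Other family genes ran opposite to T cell or platelet genes. CD200R1L had r = -0.86 with IL27RA and -0.85 with CD3E, CD300A had -0.85 with CD3E, and TLR6 had -0.85 with ITGB3 (rho = -0.60), which was -0.71 without fertile heifer 6. Fertile heifer 1 and subfertile heifer 1, from opposite groups, held the 2 highest levels of CD200R1L (78.9 and 89.3 CPM), TLR6 (108 and 105 CPM), ITGA4 (296 and 256 CPM), ITGAM (163 and 159 CPM) and CD274 (9.03 and 13.2 CPM). The same 2 heifers had the lowest levels of ITGB3 (106 and 118 CPM), CCR3 (10.9 and 11.1 CPM), CD52 (429 and 388 CPM) and ITGA2B (63.5 and 60.5 CPM).

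**Figure D4:**
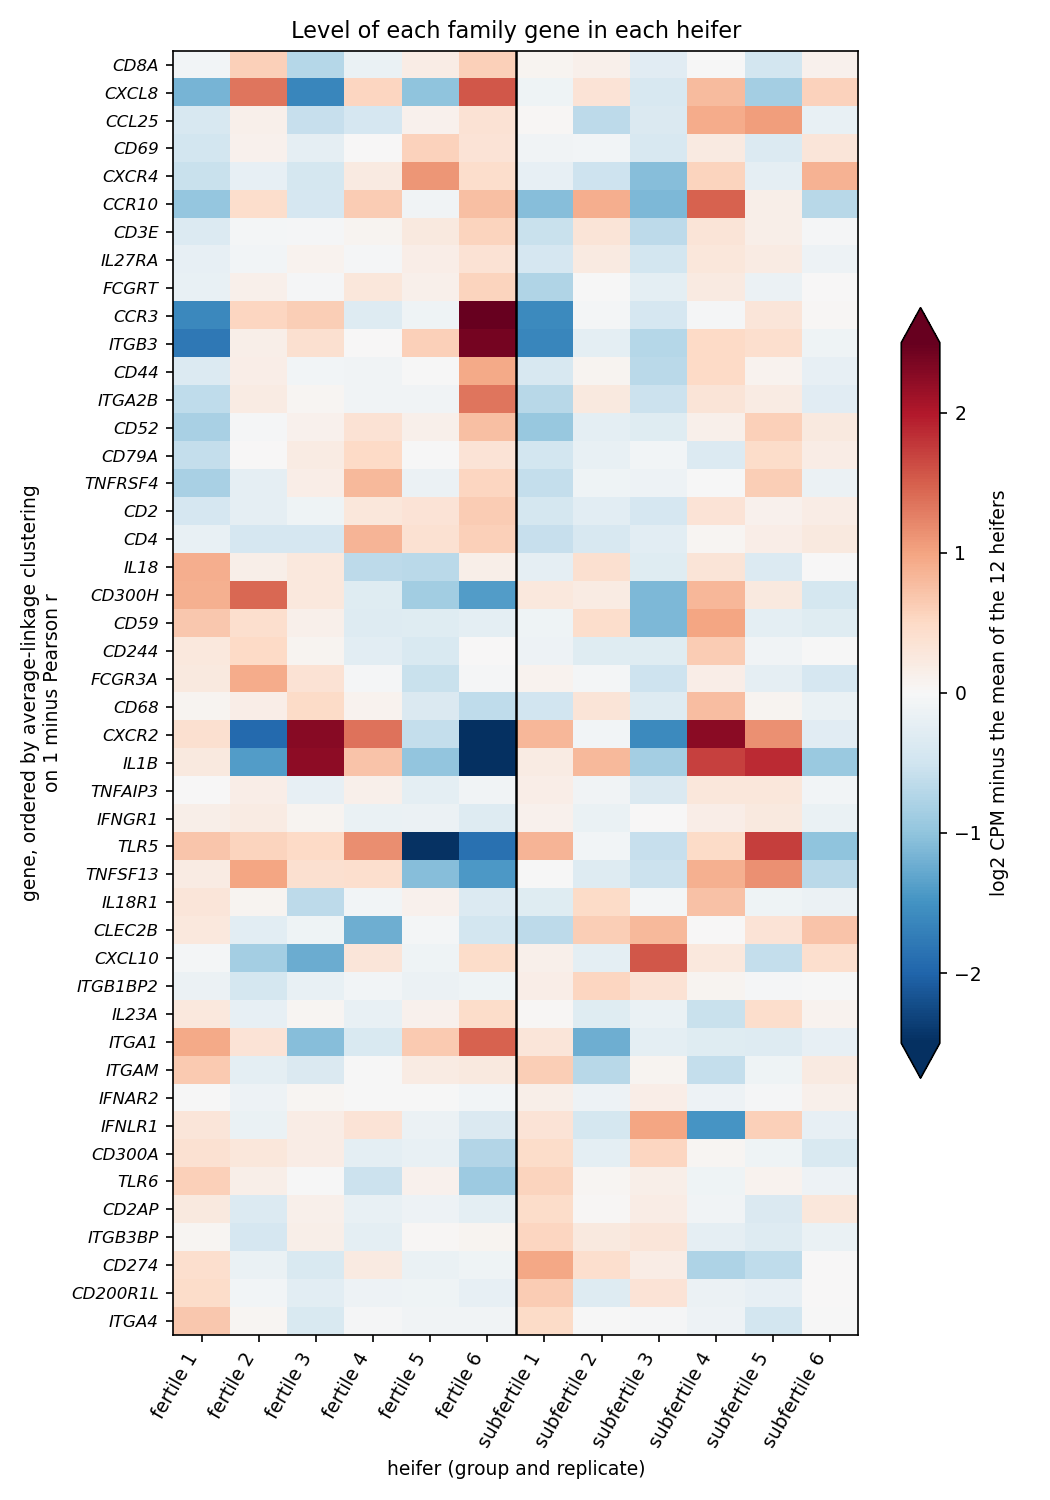
Log2 CPM of each of the 46 family genes in each heifer, minus the gene's mean over the 12 heifers, with genes ordered by average-linkage clustering on 1 minus Pearson r and a line between fertile and subfertile heifers. Fertile heifer 6 is the strongest column, high in CCR3 and ITGB3 and low in CXCR2, IL1B and TLR5, while fertile heifer 1 and subfertile heifer 1 look alike across the line.

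**Figure D5:**
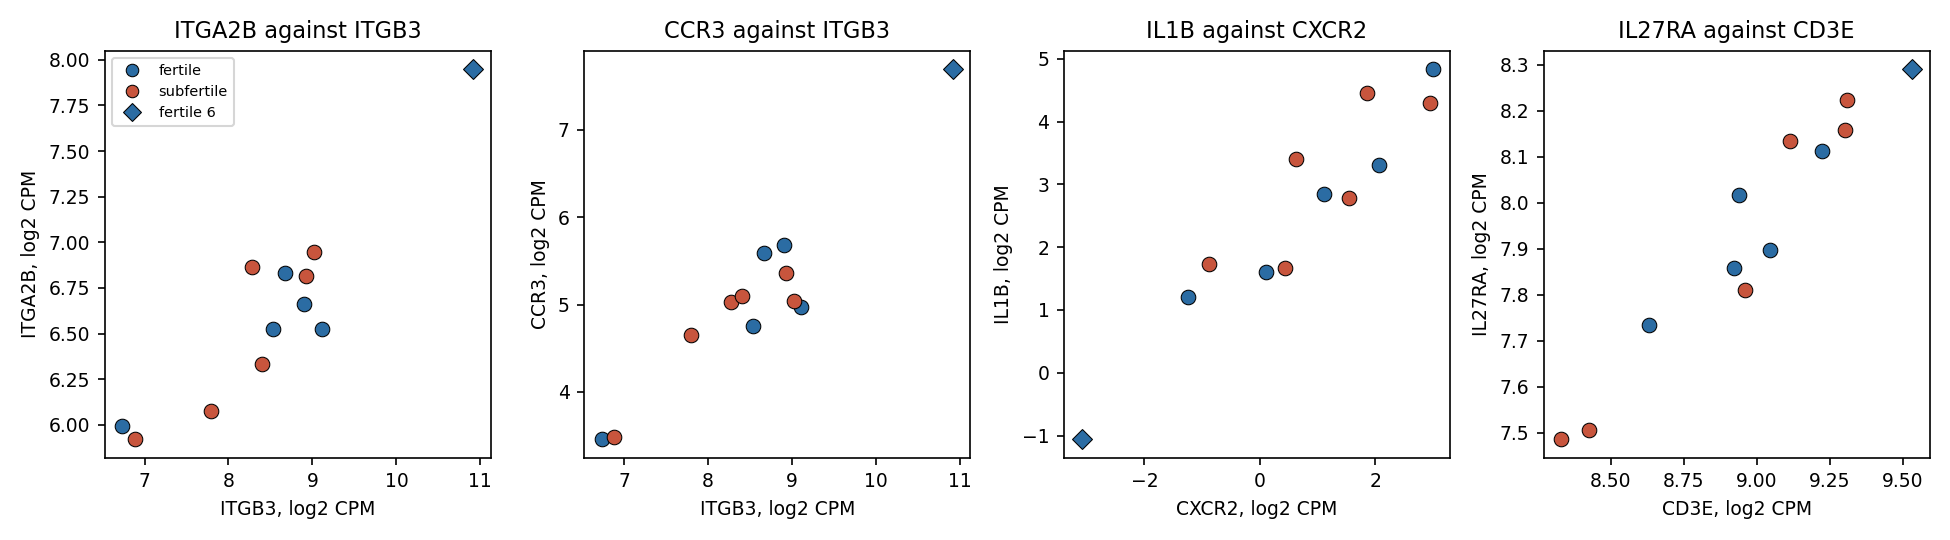
Log2 CPM of 4 pairs of family genes over the 12 heifers (1 point per heifer, fertile heifer 6 as a diamond): ITGA2B against ITGB3 (r = 0.92), CCR3 against ITGB3 (0.95), IL1B against CXCR2 (0.94) and IL27RA against CD3E (0.97). In the first 2 panels fertile heifer 6 lies far from the rest at the upper end, and r without it is 0.84 and 0.90.

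Ratios of lineage markers within a library were compared next, since they do not depend on library size. The log2 ratio of CD4 to CD8A was 1.69 ± 0.659 in fertile and 1.58 ± 0.470 in subfertile heifers (SD, n = 6 each; difference -0.11, exact permutation P = 0.751). That of CD79A to CD3E, B cell to T cell, was 0.01 ± 0.293 and 0.01 ± 0.491 (exact P = 0.998). That of CXCR2 to CD3E, neutrophil to T cell, was -8.73 ± 2.43 and -7.82 ± 1.14 (difference 0.91, exact P = 0.444). With no CXCR2 count in fertile heifer 6, the ratio there is set by the prior count, and the difference was 1.25 with a prior count of 0.5 and 0.13 without that heifer. After adjustment over the 3 ratios each P was 0.998. None differed by more than its spread, and since gene lengths were not used, a ratio is comparable between heifers but is not a ratio of cells.

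The samples were checked against markers of blood lineages. CD3E, CD2, CD79A, the cytotoxic granule gene PRF1 (66.7 to 141 CPM), CD68 and the platelet genes were above 0 in all 12 libraries, and so was a gene of the WC1 family of gamma-delta T cells (17.7 to 120 CPM). Only CXCR2 was at 0 in 1 library. The lists held few named genes, 2 of 8 for T cells, 1 of 6 for gamma-delta T cells, 1 of 7 for B cells, 1 of 6 for NK cells, 2 of 6 for monocytes, 2 of 8 for neutrophils, 1 of 6 for eosinophils, 4 of 9 for platelets and 0 of 6 for erythroid cells. All are below 80%, so a check of cell makeup by these lists is void. The summed levels of the lists overlapped between groups; for T cells they were 475 to 902 CPM in fertile and 401 to 766 CPM in subfertile heifers, and for neutrophils 21.7 to 155 and 52.0 to 215 CPM.

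Genes downstream of these receptors were also counted. Of 34 genes of JAK-STAT and NF-kB signalling, 10 had a symbol and were tested, 6 were above 0 and 4 below, and none was called; no edgeR P was under 0.217. JAK1, a kinase of many cytokine receptors, had a log2FC of -0.10 (SE 0.10), MYD88, the adaptor of Toll-like and IL-1 family receptors, 0.03 (SE 0.10), and NFKBIZ, an NF-kB cofactor induced by IL-1, 0.18 (SE 0.14). STAT2, a signal transducer of interferons, had the value farthest from 0, -0.33 (SE 0.28). Of 64 further receptor genes of the same pathways, 1 had a symbol in the part of the tables available here. It was the fractalkine receptor CX3CR1, with a log2FC of -0.29 (SE 0.28). Both lists are below 80% named, so they describe these genes only.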

How the data were processed

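Poly(A) RNA of PWBCs was sequenced as strand-specific libraries, 1 per heifer, from a single RNA batch and run; the lane of each library was not used here. The authors mapped reads with STAR 2.7.5 to ARS-UCD1.3 with Ensembl annotation, after FastQC 0.11.9 and MultiQC 1.12, and deposited raw counts per gene, without normalization or filter. STAR counts uniquely mapped reads only, so genes with near-identical copies (FCGR3A, CD300A, CD300H, CD200R1L, CLEC2B, WC1) may be undercounted, which was not tested; which strand column was taken is not stated, so genes that overlap others are uncertain.

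Members were found by symbol in the study's supplementary tables, of which the network tables were available only in part (2911 genes named). The members, roles, pairs, marker lists and pathway lists were chosen with earlier results of these data known. Values given in full are for members past the study's thresholds with edgeR or DESeq2, the 8 with the smallest edgeR P, the 8 with the widest range, and those of the pairs and ratios; every other member is given by range or fold change.

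Genes were kept with filterByExpr (groups given, minimum count 10, 70%) and tested with edgeR 4.0.16 (TMM, quasi-likelihood, group only) in R 4.3.3. Alternatives were DESeq2 1.42.0 (default Cook's rule, no independent filtering), voom of limma 3.58.1, RLE factors, library total alone, no filter, 10 counts in 6 libraries, the reproductive tract score in the model, and each library left out. Exact permutation tests were two-sided on mean log2 CPM (prior count 2) over 924 labelled assignments of 12 heifers, with 0.00216 as the smallest P; correlations used 100000 permutations (scipy 1.17.1, numpy 2.4.6), with Benjamini-Hochberg adjustment over 12 pairs and 3 ratios. Limits from a count of 0 use 3 counts and cover counting error only. In data simulated for the same comparison with 13012 genes, edgeR called 93% of 100 genes changed 2-fold and 100% of 100 changed 4-fold. It also called 342 unchanged genes, and at an adjusted P of 0.05 it found 75% and 96% of the changed ones. Each simulated gene was given the trend dispersion at its level, and 30 of the 46 family genes were above that trend. These shares are thus not the power for those genes, and a lack of calls there does not exclude a 2-fold change. Within groups, chi-square per gene between libraries was at least 18.3, so none was counted as a repeat. Each heifer is 1 replicate. Gene lengths, coordinates and sequences were not used here.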

Additional observations from a re-analysis of the deposited data

Results flagged for a closer look

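In 92 groups of 6 heifers (46 genes in 2 groups), 3 held a heifer whose gap to the next one took more of the group's whole range (log2 CPM) than Dixon's critical value for 6; chance gives about 1 in 20 groups. CD200R1L was at 78.9 CPM in fertile heifer 1, and the next fertile heifer was at 54.6 CPM. CD244 was at 46.2 CPM in subfertile heifer 4, and the next subfertile heifer was at 29.8 CPM. ITGB1BP2 was at 5.63 CPM in fertile heifer 2, and the next fertile heifer was at 6.78 CPM. Each was a different heifer, and fertile heifer 6 was not among them.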

How the results depend on the processing

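The number of the 46 genes called was 2 with edgeR, DESeq2, RLE factors, no filter and the 10-count filter, 1 with library total alone, 0 with voom and 0 with the reproductive tract score in the model (143 and 168 of all genes were called by these last 2, and 1 of the 46 genes had P of 0.05 or less by each). It ranged from 0 to 3 with 1 library left out: 0 without fertile 2, 5 or 6 or subfertile 2, 3, 5 or 6, 1 without fertile 3 or subfertile 4, and 3 without fertile 1. The share of all genes called in these fits moved too, from 0.896% without fertile 6 to 2.77% without fertile 1. The median log2FC of the set ranged from -0.12 to 0.03. With 1 library left out, the difference in log2 ratio ranged from -0.32 to 0.084 for CD4 to CD8A, from -0.12 to 0.13 for CD79A to CD3E and from 0.13 to 1.46 for CXCR2 to CD3E, so the sign of the first 2 was not fixed. Of the 12 pairs, 1 in place of 2 passed without fertile 6, where CD3E and CD2 had r = 0.74 (adjusted permutation P = 0.0578).

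Signs that changed, none of them in a gene that was called, were with voom those of CCR10 (-0.22), CD300H (0.031), CXCL8 (0.15) and IFNLR1 (-0.017). With 1 library left out 19 of the 46 genes changed sign. The log2FC ranged from -0.40 to 0.19 for CD300H (above 0 without fertile 2), from -0.48 to 0.10 for CXCL8 (fertile 6), from -0.43 to 0.91 for CXCR2 (below 0 without fertile 2, 5 or 6 or subfertile 4), from -0.25 to 0.11 for IL18 (fertile 1), from -0.47 to 0.011 for ITGA2B (fertile 6), from -0.30 to 0.00091 for ITGAM (fertile 1) and from -0.18 to 0.66 for TLR5 (subfertile 5). It also ranged from -0.34 to 0.28 for CCR10, -0.016 to 0.25 for CD200R1L, -0.23 to 0.046 for CD244, -0.087 to 0.29 for CD274, -0.015 to 0.19 for CD300A, -0.30 to 0.13 for CD59, -0.10 to 0.20 for CD68, -0.41 to 0.10 for CXCR4, -0.12 to 0.30 for IFNLR1, -0.18 to 0.10 for ITGA4, -0.33 to 0.015 for TNFRSF4 and -0.16 to 0.36 for TNFSF13. The r of IFNAR2 and IFNGR1 was 0.39 with library total alone and ranged from -0.17 to 0.13, and that of CXCR2 and CD3E from -0.34 to 0.31. The cause was not tested. The background of other genes with a symbol, of which 5.17% were called against 1.4% of all genes, was chosen after seeing the data. The fits with each library left out were planned, and so was the number of genes called in them. The other counts without fertile 6 were chosen after seeing the data. Depth limits TLR5 and CXCR2, at 0 in 1 library each. No paired analysis was possible because replicate numbers only name the heifers.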
